A study of Homo sapiens with 12 samples.

Results

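Obatoclax at 3xEC50 was compared with obatoclax at EC50 in SEM-K2 and RS4:11, to show which genes differed further when the concentration was raised. The comparison holds 8 of the series' 12 arrays, 4 at 3xEC50 and 4 at EC50. They were chosen by their labels alone, and the 4 vehicle arrays serve as background. SEM-K2 and RS4:11 are established human cell lines of acute lymphoblastic leukaemia, and both carry the KMT2A-AFF1 (MLL-AF4) fusion. Cells were plated the day before and exposed for 6 h to vehicle, to obatoclax at its EC50 from a 72 h assay, or to obatoclax at 3 times that concentration (3xEC50). Total RNA of 2 biologic replicates per line and dose was hybridised to Affymetrix U133 Plus 2 arrays. The sources used here do not give the concentrations or say whether they were equal in the lines. Each line is a single leukaemia-derived line, so differences between the lines cannot be told apart from differences between the concentrations they received. The labels call the replicates biologic without naming passages or days. The p-values therefore reflect how far these particular samples spread, and that spread may be partly technical.

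Obatoclax is a small molecule designed to occupy the groove of antiapoptotic BCL2 proteins, such as BCL2, BCL-xL (BCL2L1) and MCL1. These proteins hold the effectors BAX and BAK1, and the BH3-only proteins that set the effectors free, in check at the mitochondrial membrane. Leukaemic B cell precursors are known to depend on such proteins for survival. Besides the BCL2 family, the genes described here belong to stress responses, the lysosome, sterol synthesis, ribosome building, NF-kappaB signalling and B cell identity.

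Array values are on the log2 scale. A step is the difference of 3xEC50 minus EC50 between the arrays of the same line and replicate number, which gives 4 pairs: 2 in SEM-K2 and 2 in RS4:11. A level of 4 served as the floor, and a gene whose mean lay under it in a group was read as not above background there. Of 14 B cell precursor markers on the array, 11 in SEM-K2 and 14 in RS4:11 lay above the floor on all 6 arrays of the line, with RAG1 and BLNK under it throughout SEM-K2. MEIS1, PBX3, MEF2C, FLT3 and CDK6, targets of KMT2A fusions, were above the floor on all arrays of both lines. Among markers of other cells, CSF1R (1 of 10 myeloid), NKG7 (1 of 10 T and NK), ITGA2B (1 of 6 erythroid and megakaryocyte), and COL1A1 and KRT8 (2 of 10 fibroblast and epithelial) lay above the floor on all arrays of both lines. The defining genes CD14, MPO, CD3D, CD3E, CD3G and HBB were under the floor on all arrays. The log2 of the summed T and NK level was 8.22 to 9.58 in SEM-K2 at 3xEC50, against 8.70 to 9.38 at EC50, and 9.44 to 10.05 in RS4:11 at 3xEC50, against 9.43 to 9.82 at EC50.

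In the control probe sets that report RNA quality, SEM-K2 3xEC50 replicate 2 lay outside the range of the other arrays. Its log2 difference between 3' and 5' probe sets was 1.97 for ACTB, against 0.867 to 1.23 on the other 7 obatoclax arrays. For GAPDH the difference was 0.61 on that array, against 0.0801 to 0.302 on the others. The 3xEC50 array thus lay above its EC50 partner by 0.74 for ACTB and 0.44 for GAPDH in SEM-K2 replicate 2, and by 0.01 and 0.03 in SEM-K2 replicate 1. In RS4:11 the ACTB difference was larger at EC50 in replicate 2 (-0.20) and almost equal in replicate 1 (0.01). For GAPDH these values were -0.16 and 0.03. RS4:11 EC50 replicate 2 held the 0.302 for GAPDH, and the next highest of those arrays was SEM-K2 EC50 replicate 2 at 0.1655. A step over both lines is also given without SEM-K2 3xEC50 replicate 2, from the other 3 pairs. It is given where leaving that array out turned the sign or moved the step by over 1.5 times. The part of either SEM-K2 3xEC50 replicate 2 or RS4:11 EC50 replicate 2 in the results was not tested.

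No gene passed the threshold in the comparison of 3xEC50 with EC50 over both lines. Of 10561 genes tested with limma, 0 (0%) lay higher and 0 (0%) lay lower at an adjusted p under 0.05. No gene had an adjusted p under 1.00 once rounded. At an unadjusted p under 0.05 there were 209 genes (1.98%), 111 higher (1.05%) and 98 lower (0.928%) at 3xEC50. Without SEM-K2 3xEC50 replicate 2, 0 genes were called and 362 had an unadjusted p under 0.05. Over the genes tested, 5346 (50.6%) had a mean step above 0 and the median step was 0.00. In whole cultures, fewer cells with a transcript and less transcript per cell cannot be told apart.

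The same fit bounds what the higher dose could have added. The median standard error (SE) of a step was 0.107 and the median 95% interval reached 0.26 on either side of the estimate. That interval lay inside -1 to 1 for 10400 genes (98.5%) and inside -0.5 to 0.5 for 8657 genes (82.0%). For the first of these sets of genes a mean step beyond 2-fold lay outside the 95% interval, whereas a step under 0.26 was within the error of a typical gene. These intervals hold gene by gene and are not adjusted for the number of genes.

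The steps between doses lay in or under the range of the differences between replicates of 1 dose. In SEM-K2 the median absolute step over the 10561 genes was 0.107 in replicate 1 and 0.224 in replicate 2, and 47 and 287 genes differed by at least 1. RS4:11 had median absolute steps of 0.102 in replicate 1 and 0.158 in replicate 2, with 38 and 86 genes at 1 or more. Arrays of the same line and dose with different replicate numbers differed by a median of 0.168 to 0.264. The larger of the SEM-K2 values belongs to the pair with the array of high 3' to 5' difference. EC50 minus vehicle, taken within a replicate number like the steps, also lay in or under that range, at 0.128 to 0.242. Differences across replicate numbers also hold what separates the replicate sets, so this range cannot tell an effect of dose from none.

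**Figure D1:**
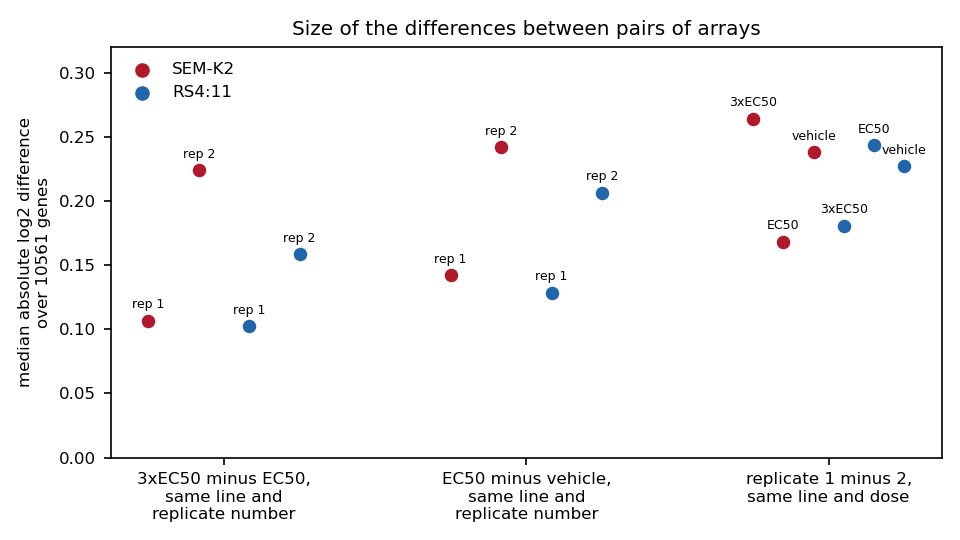
Median absolute log2 difference over 10561 genes between 2 arrays, for 3xEC50 minus EC50 and EC50 minus vehicle (same line and replicate number) and for replicate 1 minus 2 (same line and dose); each point is 1 pair of arrays, SEM-K2 in red and RS4:11 in blue. The 4 points for 3xEC50 minus EC50 lie at 0.102 to 0.224 and those for EC50 minus vehicle at 0.128 to 0.242, and replicates of 1 dose lie at 0.168 to 0.264.

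More genes had 1 sign in all 4 pairs for EC50 minus vehicle (2960, 28.0%) than for 3xEC50 minus EC50 (847, 8.02%). EC50 lay above vehicle in all 4 pairs for 1921 genes (18.2%) and below it in all 4 for 1039 (9.84%). These counts also hold any offset of a whole array. Over all genes the median of EC50 minus vehicle was 0.12 in SEM-K2 replicate 2 and 0.05 in RS4:11 replicate 2. It was -0.005 and -0.002 in replicate 1 of SEM-K2 and RS4:11. For 3xEC50 minus EC50, 407 genes (3.85%) were higher in all 4 pairs and 440 (4.17%) were lower in all 4. These 2 comparisons share the EC50 arrays, and their difference was not tested. Across the 10561 genes, the steps of SEM-K2 replicates 1 and 2 had a Pearson correlation of 0.108, and those of RS4:11 replicates 1 and 2 had -0.001. Between the lines the correlations ran from -0.373 (SEM-K2 replicate 2 with RS4:11 replicate 2) to 0.070. For EC50 minus vehicle the 6 correlations were 0.208 to 0.372. Genes are not independent replicates, so these values only describe the arrays.

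No antiapoptotic target of obatoclax passed the test between the doses. BCL2 levels were 11.08 and 11.07 in SEM-K2 at 3xEC50, against 10.96 and 10.90 at EC50. In RS4:11 they were 11.25 and 11.11 at 3xEC50, against 11.27 and 11.18 at EC50. The BCL2 step over both lines was 0.05 ± 0.08 (SE), with a 95% interval of -0.16 to 0.26, and the doses overlapped in RS4:11. It was 0.01 without SEM-K2 3xEC50 replicate 2, and 3 other BCL2 probe sets above the floor had -0.18 to 0.16. MCL1, the short-lived member of the family, had levels of 11.24 and 11.62 in SEM-K2 at 3xEC50, against 11.20 and 11.07 at EC50. RS4:11 had MCL1 levels of 10.82 and 10.93 at 3xEC50, against 10.86 and 11.14 at EC50. Its step was 0.08 ± 0.14 (interval -0.25 to 0.42) and -0.07 without SEM-K2 3xEC50 replicate 2, so its sign rested on that array. The 4 other MCL1 probe sets above the floor had -0.40 to 0.15. BCL2L2 (BCL-w) had a step of 0.04 ± 0.14 (interval -0.29 to 0.38), and -0.09 without the array.

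BCL2L1 was the member with the widest error. Its level on SEM-K2 3xEC50 replicate 2 was 3.67, against 5.37 on the EC50 array of the same replicate. In SEM-K2 replicate 1 it was 6.30 at 3xEC50 and 6.23 at EC50. RS4:11 had 6.47 and 6.62 at 3xEC50, against 6.66 and 5.63 at EC50. The step was -0.21 ± 0.40, with an interval of -1.19 to 0.77, and turned to 0.29 without SEM-K2 3xEC50 replicate 2. Its 2 other probe sets above the floor had steps of -0.08 and 0.08. The 4 antiapoptotic genes tested had a median step of 0.05, and of -0.03 without that array. BCL2L10 and BCL2A1 did not pass the filter on low values and were not among the genes tested.

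Of 10 effectors and BH3-only genes tested, 5 had a step above 0 and 0 were called. BAX, the effector that opens the mitochondrial membrane, had its extreme value on the same array as BCL2L1. Its level was 5.59 on SEM-K2 3xEC50 replicate 2, against 8.22 at EC50 in that replicate, and the other 3 pairs had steps of -0.03, 0.57 and 1.57. The mean BAX step was -0.13 ± 0.63, and 0.70 without that array. PMAIP1 (NOXA), which binds MCL1, had a step of -0.01 ± 0.08, BCL2L11 (BIM) of 0.05 ± 0.13 and BID of 0.06 ± 0.09. Without that array these were 0.02, -0.08 and -0.01. BNIP3, a mitochondrial protein that takes part in mitophagy, had the smallest unadjusted p of this group. Its levels in SEM-K2 were 11.15 and 9.43 at 3xEC50, against 11.37 and 9.70 at EC50. The step was -0.31 ± 0.08 (limma adjusted p = 1.00) and lower in 4 of 4 pairs, but BNIP3 was under the floor in RS4:11 at both doses. Its other probe set above the floor had 0.10. The 17 death receptor and caspase genes had a median step of 0.03, with CYLD, a deubiquitinase that restrains NF-kappaB signalling, at 0.24 ± 0.11, and at -0.06 to 0.22 in its 3 other probe sets above the floor.

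Few genes combined a step of at least 0.5 with the same sign in all 4 pairs. There were 6 such genes higher at 3xEC50 (0.0568% of those tested) and 15 lower (0.142%). All 6 of the higher ones and the 10 lower ones with the smallest unadjusted p are named, and the limma adjusted p of each was 1.00. TRIM66, a nuclear protein of the tripartite motif family, was above the floor in both lines and under EC50 in every pair. Its levels were 5.34 and 5.33 in SEM-K2 at 3xEC50, against 5.67 and 5.65 at EC50. In RS4:11 they were 6.14 and 5.86 at 3xEC50, against 6.72 and 6.64 at EC50. The doses did not overlap in either line, and the step was -0.50 ± 0.11 (interval -0.76 to -0.24). The corresponding vehicle levels were 5.66 and 5.72 in SEM-K2, and 6.45 and 6.94 in RS4:11.

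B3GALT4, a galactosyltransferase of ganglioside synthesis, had levels of 4.43 and 3.74 in SEM-K2 at 3xEC50, against 4.64 and 4.45 at EC50. It measured 5.06 and 4.48 in RS4:11 at 3xEC50, against 5.65 and 5.49 at EC50. Its step was -0.63 ± 0.14, in a range of levels close to the floor. SKI, a repressor of TGF-beta signalling, was measured only in SEM-K2, at 7.16 and 7.34 at 3xEC50, against 7.41 and 7.89 at EC50. In RS4:11 SKI was under the floor, although its step of -0.53 ± 0.10 draws on both lines. ZNF649, a zinc finger gene, had the smallest unadjusted p of all genes and a step of -0.65 ± 0.12. Its levels were 3.82 and 3.79 in SEM-K2 at 3xEC50, against 4.77 and 4.15 at EC50, and 3.81 and 3.38 in RS4:11 at 3xEC50, against 4.35 and 4.12 at EC50. The 3xEC50 means were thus under the floor, at least 1.38-fold lower than EC50 in SEM-K2 and at least 1.18-fold lower in RS4:11. This gene was above the floor on the EC50 arrays alone and passed the filter on low values through them. ZNF649 lay near its vehicle levels of 3.78 and 3.69 in SEM-K2, and 3.81 and 3.66 in RS4:11, at the higher dose.

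The other lower genes were NAV2 (-0.66), ZMYM5 (-0.61), LOC105374809 (-0.56), EID2B (-0.53), C10orf143 (-0.51) and SH2D2A (-0.50). NAV2 and LOC105374809 were under the floor in SEM-K2 at both doses, and C10orf143 in RS4:11. The ZMYM5 step was not seen in its 2 other probe sets above the floor, which had 0.01 and 0.06, and it was -0.39 without SEM-K2 3xEC50 replicate 2. SH2D2A, an adaptor protein of lymphocytes, was above the floor in both lines, at 6.05 and 4.46 in SEM-K2 at 3xEC50, against 6.44 and 5.60 at EC50. Its RS4:11 levels were 7.95 and 7.15 at 3xEC50, against 8.02 and 7.55 at EC50, so that replicates differed by more than doses. Without SEM-K2 3xEC50 replicate 2 its step was -0.29.

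The higher genes were LINC00865 (0.65), EGFL7 (0.64), STARD13 (0.59), SEPTIN7P13 (0.58), BICC1 (0.58) and TEAD4 (0.56). Leaving out SEM-K2 3xEC50 replicate 2 gave 0.40 for LINC00865, 0.21 for EGFL7, 0.27 for STARD13 and 0.29 for BICC1. TEAD4, a transcription factor of the Hippo pathway, had 8.02 and 8.64 in SEM-K2 at 3xEC50, against 7.72 and 8.18 at EC50, and its other probe set had a step of 0.03. In RS4:11 it lay near the floor. STARD13 had 6.05 and 7.46 in SEM-K2 at 3xEC50, against 5.66 and 5.88 at EC50, and was under the floor in RS4:11. BICC1 was likewise under the floor in RS4:11, and EGFL7 in SEM-K2. SEPTIN7P13, TEAD4 and LINC00865 had EC50 means under the floor in 1 line.

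**Figure D2:**
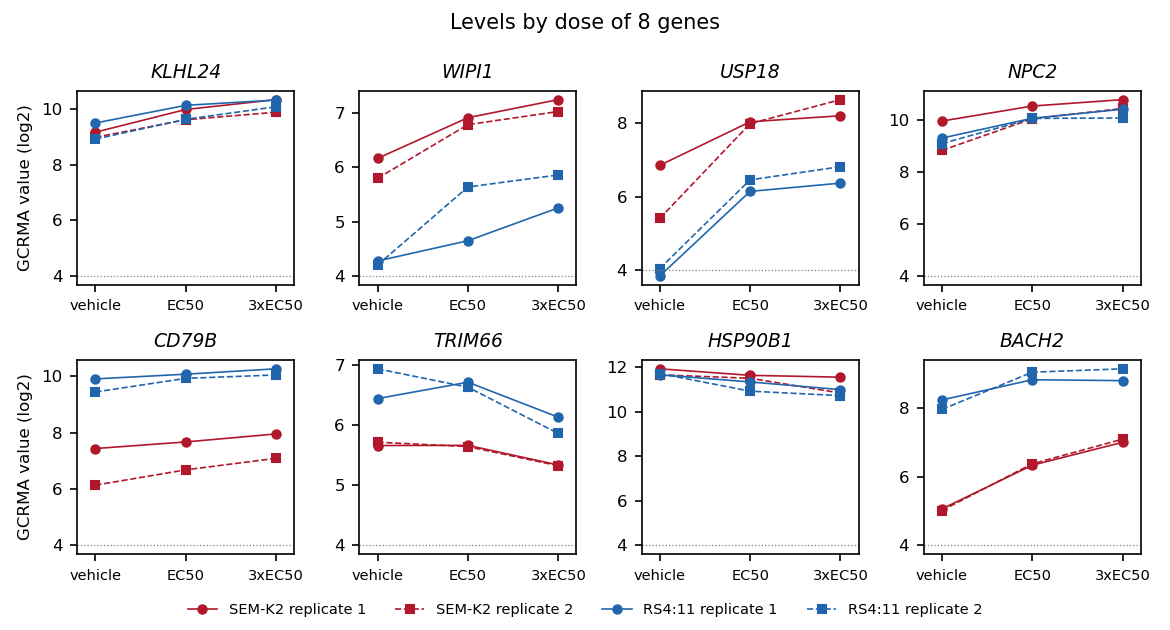
Levels (log2) of 8 genes at vehicle, EC50 and 3xEC50; each line joins the arrays of 1 cell line and replicate number (SEM-K2 red, RS4:11 blue; replicate 1 solid, replicate 2 dashed), and the dotted line marks the floor of 4. KLHL24, WIPI1, USP18, NPC2 and CD79B lay higher at 3xEC50 in 4 of 4 pairs, TRIM66 and HSP90B1 lay lower in 4 of 4, and BACH2 lay higher in SEM-K2 while RS4:11 had steps of -0.03 and 0.10.

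Some genes that already differed from vehicle at EC50 lay slightly further from it at 3xEC50, without passing the test. KLHL24, an adaptor of a cullin ubiquitin ligase and a gene of the integrated stress response list, was higher in 4 of 4 pairs. Its levels were 10.34 and 9.89 in SEM-K2 at 3xEC50, against 9.99 and 9.62 at EC50. RS4:11 had 10.33 and 10.09 at 3xEC50, against 10.14 and 9.63 at EC50. The step was 0.32 ± 0.08 (interval 0.11 to 0.52), and 0.33 without SEM-K2 3xEC50 replicate 2. The 4 other KLHL24 probe sets above the floor had -0.21 to 0.07, so the step rests on 1 of 5 probe sets. Vehicle levels were 9.17 and 8.99 in SEM-K2, and 9.50 and 8.92 in RS4:11.

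WIPI1, a phosphoinositide-binding protein of early autophagosomes, had 7.24 and 7.02 in SEM-K2 at 3xEC50, against 6.91 and 6.78 at EC50. In RS4:11 it had 5.25 and 5.86 at 3xEC50, against 4.65 and 5.63 at EC50. Its step of 0.35 ± 0.10 was higher in 4 of 4 pairs and 0.38 without the array, from vehicle levels of 6.16 and 5.79 in SEM-K2, and 4.28 and 4.20 in RS4:11. USP18, which removes ISG15 from proteins and dampens interferon signalling, had 8.21 and 8.65 in SEM-K2 at 3xEC50, against 8.04 and 7.99 at EC50. RS4:11 had USP18 at 6.37 and 6.82 at 3xEC50, against 6.14 and 6.46 at EC50, and vehicle levels were 6.85 and 5.40 in SEM-K2, and 3.83 and 4.03 in RS4:11. The USP18 step was 0.35 ± 0.11, or 0.25 without the array, far less than its distance from vehicle.

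Some genes that differed from vehicle at EC50 in 1 or both lines, picked with their values already known, had steps smaller than that difference. BACH2, PTPRE and TNFAIP3, picked in the same way and described further below, had SEM-K2 steps of 0.69, 0.69 and 0.66. KANK1, a regulator of the actin cytoskeleton, lay at 2.54 on both vehicle arrays of SEM-K2. It measured 6.78 and 7.19 at 3xEC50, against 6.61 and 6.55 at EC50. RS4:11 stayed under the floor at every dose. ENPP2, which makes lysophosphatidic acid, had 7.04 and 6.66 in SEM-K2 at 3xEC50, against 6.91 and 5.95 at EC50. Vehicle levels were 2.89 and 3.18. SEMA3A, a secreted guidance protein, had 6.15 and 5.14 in SEM-K2 at 3xEC50, against 6.57 and 5.73 at EC50. Vehicle levels were 8.59 and 8.78. The doses overlapped in SEM-K2 for ENPP2 and SEMA3A and did not for KANK1, and all obatoclax arrays of SEM-K2 stood apart from vehicle for each of them. Their SEM-K2 steps were 0.41 ± 0.16 for KANK1, 0.42 ± 0.17 for ENPP2 and -0.50 ± 0.16 for SEMA3A. In the SEM-K2 replicate 1 pair alone they were 0.17, 0.13 and -0.42. FLCN, a regulator of mTORC1 at the lysosome, had a step of 0.09 ± 0.12, and SLC7A11, the cystine transporter, of 0.19 ± 0.15. HSPA5 (BiP), the main chaperone of the endoplasmic reticulum, had -0.13 ± 0.08. These were, without SEM-K2 3xEC50 replicate 2, -0.03, 0.04 and -0.08, and another FLCN probe set had -0.15.

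Gene groups were described by their counts and medians, beside 50.6% of genes above 0 and a median step of 0.00 over all 10561 genes. No member of any list was called. Of 26 ribosome biogenesis genes, which build ribosomal RNA and its particles in the nucleolus, 2 had a step above 0 and the median was -0.07. The median was -0.06 and -0.04 in the SEM-K2 pairs, and -0.08 and -0.05 in the RS4:11 pairs, and -0.08 without SEM-K2 3xEC50 replicate 2. Lower in all 4 pairs were 6 of them, PES1, RRS1, POLR1A, POLR1B, DDX21 and MYBBP1A, beside 4.17% of all genes. MYBBP1A, a nucleolar protein that binds MYB, had 7.96 and 8.02 in SEM-K2 at 3xEC50, against 8.02 and 8.79 at EC50. RS4:11 had 7.52 and 8.24 at 3xEC50, against 7.74 and 8.47 at EC50. Its step was -0.32 ± 0.13, and -0.17 without the array. POLR1A and POLR1B, the large subunits of RNA polymerase I, had steps of -0.21 ± 0.11 and -0.16 ± 0.09, with POLR1B at -0.09 without the array. For comparison, the pair medians of EC50 minus vehicle were -0.18 to -0.38 for the list. The 18 ribosomal protein genes had a median of 0.00 with 9 above 0, and MYC had a step of -0.06 ± 0.08, and of -0.09 without the array.

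Most lysosome and autophagy genes had a small step above 0, drawn from SEM-K2. Of 33 lysosome genes, 23 had a step above 0 over both lines, with a median of 0.06. Without SEM-K2 3xEC50 replicate 2, 19 were above 0 and the median was 0.03. The pair medians were 0.14 and 0.21 in SEM-K2, against 0.00 and -0.10 in RS4:11. NPC2, which hands cholesterol on inside the lysosome, had 10.80 and 10.46 in SEM-K2 at 3xEC50, against 10.55 and 10.07 at EC50, and 10.43 and 10.09 in RS4:11 at 3xEC50, against 10.08 and 10.08 at EC50. Its step was 0.25 ± 0.10. ASAH1, the acid ceramidase, had 0.25 ± 0.10 and NEU1, a lysosomal sialidase, 0.25 ± 0.13, with NEU1 at 0.11 without the array. MITF, a transcription factor related to TFEB, had a step of -0.27 ± 0.17, with RS4:11 under the floor at both doses. Of 25 autophagy genes, 20 had a step above 0 with a median of 0.055, and 18 with a median of 0.02 without the array.

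Most sterol synthesis genes also had a step above 0. Of 24 cholesterol and fatty acid synthesis genes, 19 had a step above 0 with a median of 0.09. Without SEM-K2 3xEC50 replicate 2, 14 were above 0 with a median of 0.01, beside 5241 of all 10561 genes above 0. The pair medians were 0.12 and 0.27 in SEM-K2, against -0.03 and 0.02 in RS4:11. INSIG1, the sterol-regulated anchor of the SREBP escort protein, had 12.85 and 12.56 in SEM-K2 at 3xEC50, against 12.78 and 12.25 at EC50. In RS4:11 INSIG1 had 12.79 and 12.37 at 3xEC50, against 12.70 and 11.98 at EC50. Its step was 0.21 ± 0.09 and higher in 4 of 4 pairs, as were those of MSMO1 and SC5D, enzymes of the same pathway, at 0.13 ± 0.08 each. MVD (mevalonate diphosphate decarboxylase) had the lowest step of the list, -0.53 ± 0.37, through a level of 2.43 on SEM-K2 3xEC50 replicate 2, and -0.03 without that array.

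**Figure D3:**
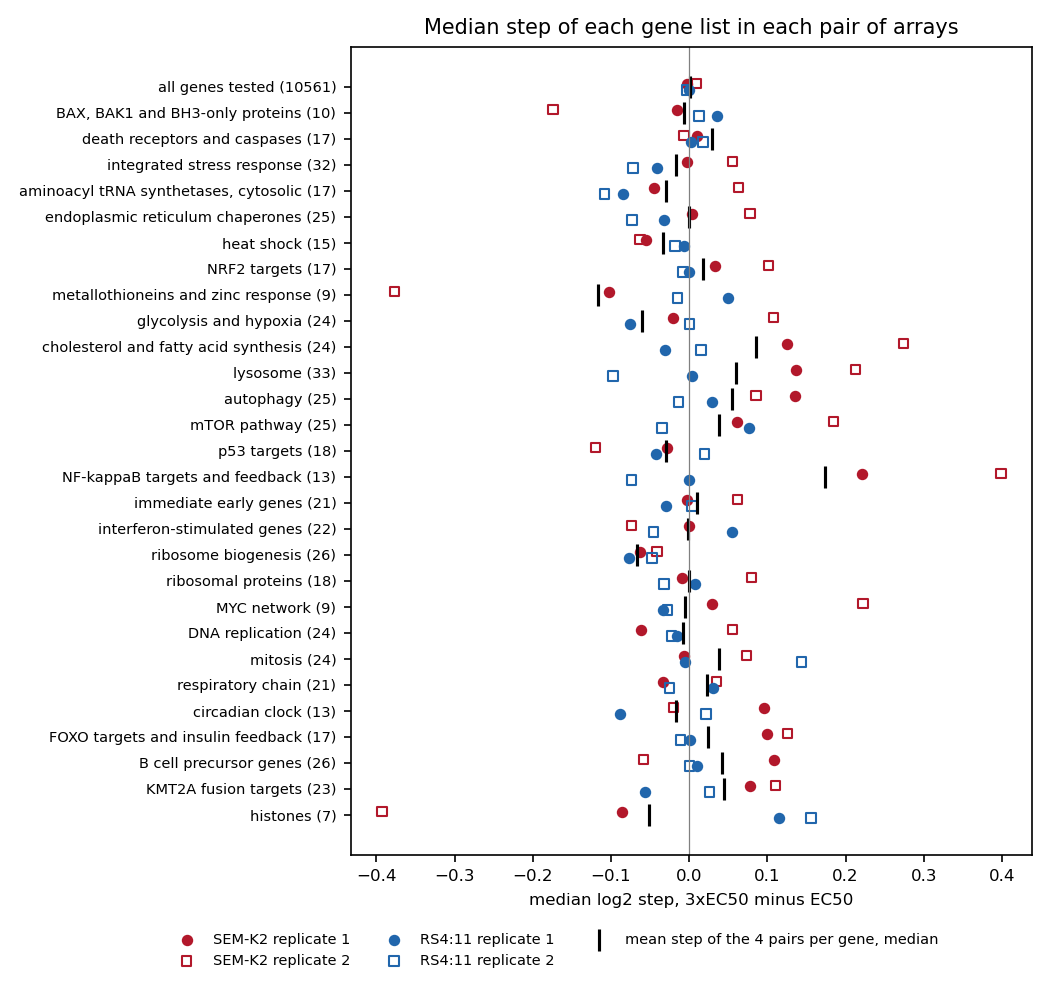
Median log2 step of each gene list (number of genes tested in brackets) in each of the 4 pairs, and the median of the genes' mean steps (black bar); SEM-K2 in red, RS4:11 in blue, replicate 1 filled and replicate 2 open. Over all genes the 4 pair medians lie within 0.01 of 0, the NF-kappaB list lies at 0.22 and 0.40 in SEM-K2 against 0.00 and -0.07 in RS4:11, and ribosome biogenesis lies under 0 in all 4 pairs.

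Stress responses had medians near 0. The integrated stress response list, the genes of ATF4 signalling, had 15 of 32 members above 0 and a median of -0.02. ATF4 had a step of -0.04 ± 0.09, ASNS (asparagine synthetase) -0.12 ± 0.08 and TRIB3, a pseudokinase that feeds back on the pathway, 0.03 ± 0.09. ATF4 had 0.00 and TRIB3 -0.01 without SEM-K2 3xEC50 replicate 2. Of 17 cytosolic tRNA synthetases, 4 were above 0 with a median of -0.03. The 25 chaperones of the endoplasmic reticulum had 12 above 0 and a median of 0.00. HSP90B1 (GRP94) had 11.56 and 10.85 in SEM-K2 at 3xEC50, against 11.65 and 11.51 at EC50, and 11.00 and 10.73 in RS4:11 at 3xEC50, against 11.35 and 10.93 at EC50. It was lower in 4 of 4 pairs with a step of -0.32 ± 0.12, which was -0.21 without the array. SDF2L1, a chaperone partner in the same compartment, had -0.26 ± 0.10, and -0.17 without it. Of 15 heat shock genes, 2 were above 0 with a median of -0.03, and FKBP4, an HSP90 cochaperone, had -0.47 ± 0.17. FKBP4 was under the floor in SEM-K2 at 3xEC50, and its other probe set above the floor had 0.29.

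Redox genes lay near 0, whereas metallothioneins lay under 0 in SEM-K2. Of 17 NRF2 targets, 10 were above 0 with a median of 0.02. The 9 metallothionein and zinc genes had a median of -0.12, with pair medians of -0.10 and -0.38 in SEM-K2, against 0.05 and -0.01 in RS4:11, and a median of -0.05 without SEM-K2 3xEC50 replicate 2. MT1G had a step of -0.32 ± 0.16 and MT1X of -0.32 ± 0.18, which were -0.14 and -0.10 without that array. Hypoxia and glycolysis genes had 8 of 24 above 0 with a median of -0.06. The 22 interferon-stimulated genes had 11 above 0 and a median of 0.00, with USP18 the 1 member higher in all 4 pairs and 2 members, IFIT5 (-0.11) and IFI44 (-0.14), lower in all 4. The 18 p53 targets had a median of -0.03, with SESN2 at -0.34 ± 0.18 (-0.15 without the array), and the 21 immediate early genes had 0.01, with JUND at 0.22 ± 0.11 and at -0.11 and 0.06 in its 2 other probe sets above the floor.

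Cell identity and growth lists had medians of -0.05 to 0.04. The 26 B cell precursor genes had a median of 0.04. Higher in all 4 pairs were 4 of them, CD72, CD79B, DNTT and RAG2, beside 3.85% of all genes, and 1, TLR10 (-0.38, or -0.20 without the array), was lower in all 4, beside 4.17%. CD79B, a signalling chain of the B cell receptor, had 7.96 and 7.09 in SEM-K2 at 3xEC50, against 7.67 and 6.68 at EC50, and 10.27 and 10.05 in RS4:11 at 3xEC50, against 10.08 and 9.93 at EC50. Its step was 0.25 ± 0.09, smaller than the gap between replicates in SEM-K2. The 23 targets of KMT2A fusions had a median of 0.04, with MYB, a transcription factor of immature blood cells, at 0.15 ± 0.11, which was 0.06 without SEM-K2 3xEC50 replicate 2. DNA replication had a median of -0.01 over 24 genes, mitosis 0.04 over 24 and the respiratory chain 0.02 over 21. Of 25 mTOR pathway genes 16 were above 0 with a median of 0.04, and SESN3, a sestrin that restrains mTORC1, had 0.36 ± 0.12. Of the 17 FOXO targets, SESN3 among them, 9 were above 0. The 13 clock genes and the 9 of the MYC network had medians of -0.02 and 0.00, and the 7 histone genes had -0.05, with H2BC5 at -0.33 ± 0.12. Without SEM-K2 3xEC50 replicate 2 the histone median turned to 0.07, and H2BC5 had -0.20. The medians of the lists given here for all 4 pairs alone lay between -0.08 and 0.05 without that array. Of the markers of other cell types, CSF1R had -0.04 ± 0.08, NKG7 -0.02 ± 0.15, ITGA2B 0.18 ± 0.09 and COL1A1 0.04 ± 0.12. Without the array CSF1R had 0.00, NKG7 0.16 and COL1A1 0.02.

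For the step within SEM-K2, no gene passed either. Of 10561 genes, 0 (0%) were called higher and 0 (0%) lower by limma, with a smallest adjusted p of 0.373, and 730 (6.91%) had an unadjusted p under 0.05. Of these, 452 (4.28%) were higher and 278 (2.63%) lower at 3xEC50. Both pairs had the same sign for 6043 genes (57.2%), and 54 genes had a step of at least 1 in size. The SE and p-values of a step within a line use a spread shared by the arrays of both lines, not of that line alone. Without SEM-K2 3xEC50 replicate 2, SEM-K2 keeps the replicate 1 pair alone. The 12 genes named in SEM-K2 were picked for the same sign in both pairs, so leaving out that array could not turn their signs. The smallest p belonged to ME1, the cytosolic malic enzyme, which supplies NADPH and is an NRF2 target. Its levels in SEM-K2 were 5.13 and 4.29 at 3xEC50, against 3.75 and 2.92 at EC50. Vehicle levels were 5.15 and 4.0. ME1 lay lower at EC50 than with vehicle and near vehicle at 3xEC50 in both replicates. The step was 1.37 ± 0.11 (limma adjusted p = 0.373). Since EC50 was under the floor, 3xEC50 lay at least 1.63-fold higher, and RS4:11 was under the floor at both doses. The RS4:11 steps of ME1, -0.0004 and 0.009, thus added little to the shared spread behind its SE and p. The 2 other probe sets of ME1 gave no level above the floor.

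The 250 bases before the RefSeq start of ME1 are shown because it had the smallest p in SEM-K2 and belongs to the NRF2 list. They lie at chr6:83431052-83431301 (GRCh38.p14, minus strand) and are printed in the gene's direction. Capitals mark the antioxidant response element letters TGACNNNGC, found 137 bases before the start.
ME1: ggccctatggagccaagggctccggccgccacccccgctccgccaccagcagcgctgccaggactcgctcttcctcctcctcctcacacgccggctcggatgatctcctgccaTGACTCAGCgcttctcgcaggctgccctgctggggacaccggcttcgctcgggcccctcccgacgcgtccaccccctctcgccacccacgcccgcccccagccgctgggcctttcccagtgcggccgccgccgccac
On either strand these letters occur in 15.6% of 8729 promoters of tested genes, counted in windows of 250 bases before and 50 after the start. The AP-1 letters TGANTCA overlap this match. The printed bases also hold 1 match to the NF-kappaB letters described further below, gggcctttcc, which is not in capitals. Such a match is a description of the sequence and shows no binding.

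CD40, a receptor of the tumour necrosis factor family through which T cells signal to B cells, lay higher at each dose in SEM-K2. Its levels were 7.46 and 7.09 at 3xEC50, against 6.33 and 6.14 at EC50. Vehicle levels were 5.24 and 4.90. No replicate overlapped between doses, and the step was 1.04 ± 0.13 (limma adjusted p = 0.544), with 0.55 and 0.66 in the gene's 2 other probe sets above the floor. In RS4:11 CD40 had 5.25 and 5.01 at 3xEC50, against 5.20 and 5.24 at EC50. DDIT4L, a paralogue of the mTORC1 inhibitor DDIT4, had 4.38 and 5.47 at 3xEC50 in SEM-K2, against 3.08 and 3.45 at EC50. Vehicle levels were 2.39 and 2.09. DDIT4L was above the floor on the SEM-K2 3xEC50 arrays alone and passed the filter on low values through them. Its EC50 mean in SEM-K2 was under the floor, so 3xEC50 lay at least 1.90-fold higher. The fitted step of 1.66 ± 0.20 starts from values not above background. DAB2 and GUCY1A2, an endocytic adaptor and a subunit of soluble guanylate cyclase, had steps of 1.13 ± 0.12 and 1.12 ± 0.14. TYRO3, a receptor tyrosine kinase, had 1.08 ± 0.13. The EC50 means of these 3 genes in SEM-K2 were under the floor, so that 3xEC50 lay at least 1.33-fold, 1.35-fold and 1.97-fold higher.

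KLHL14, a kelch protein expressed in B cells, lay lower at each dose in SEM-K2. Its levels were 4.81 and 4.30 at 3xEC50, against 5.81 and 5.34 at EC50. Vehicle levels were 7.53 and 7.49. The step was -1.02 ± 0.12 (limma adjusted p = 0.544), and no replicate overlapped between doses. RS4:11 had KLHL14 at 5.81 and 5.06 at 3xEC50, against 5.91 and 4.96 at EC50. Vehicle levels were 6.74 and 6.23. DLX2, a homeobox transcription factor, had 2.98 and 2.66 in SEM-K2 at 3xEC50, against 4.18 and 3.93 at EC50. Vehicle levels were 4.99 and 4.98. Its fitted step was -1.24 ± 0.11 (limma adjusted p = 0.373), and 3xEC50, under the floor, lay at least 1.04-fold lower than EC50. In RS4:11 DLX2 was under the floor, with steps of -0.003 and 0.007 that likewise added little to the shared spread. LGR5, a receptor for R-spondins, had 4.29 and 4.09 in SEM-K2 at 3xEC50, against 5.83 and 5.02 at EC50. NAV2, EID2B and CCDC61 completed the lower genes, with steps of -0.98, -0.84 and -0.70. For NAV2 both doses were under the floor in SEM-K2. BACH2, a repressor that guides B cell development, had 7.0 and 7.09 in SEM-K2 at 3xEC50, against 6.33 and 6.38 at EC50. Vehicle levels were 5.06 and 5.01. Its replicates lay close together, and its SEM-K2 step was 0.69 ± 0.12, against 0.04 ± 0.12 in RS4:11.

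For the step within RS4:11, with the same shared spread, 0 genes (0%) were called higher and 0 (0%) lower. The smallest adjusted p by limma was 0.757. At an unadjusted p under 0.05 there were 266 genes (2.52%), 103 higher (0.975%) and 163 lower (1.54%). The pairs had the same sign for 5305 genes (50.2%), and 12 genes had a step of at least 1 in size. NMNAT1, which makes NAD in the nucleus, had 6.27 and 5.68 at 3xEC50, against 5.33 and 4.41 at EC50. Vehicle levels were 6.16 and 5.74. Its step was 1.10 ± 0.14 (limma adjusted p = 0.757), but its other probe set above the floor had -0.05. MFSD2A, a transporter of lysophosphatidylcholine, had 4.62 and 5.22 at 3xEC50, against 3.68 and 4.22 at EC50. Vehicle levels were 4.52 and 4.47. As with ME1 in SEM-K2, the EC50 arrays were the low ones, with a mean under the floor, and 3xEC50 lay at least 1.89-fold higher. LINC02482 (1.04), MEGF10 (0.62), ZNF792 (0.56) and CD300A (1.03) were the other higher genes, with CD300A under the floor at both doses.

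Named as lower in RS4:11 were ACVR2B, RGMB, FZD6, TSKU, GCNT2 and C10orf143. ACVR2B, an activin receptor, had 3.77 and 3.78 at 3xEC50, against 4.85 and 4.71 at EC50. Vehicle levels were 3.72 and 3.86. RGMB, a coreceptor of bone morphogenetic proteins, had 3.25 and 3.84 at 3xEC50, against 4.31 and 4.76 at EC50. FZD6, a Wnt receptor, had 3.65 and 4.03 at 3xEC50, against 4.88 and 4.88 at EC50. Vehicle levels were 3.65 and 2.59. All 3 were under the floor at 3xEC50. ACVR2B lay at least 1.72-fold lower than at EC50, RGMB at least 1.45-fold and FZD6 at least 1.84-fold. The other probe set of ACVR2B above the floor had a step of 0.00, and that of RGMB -0.39. TSKU, a secreted inhibitor of several growth factors, had 4.10 and 3.91 at 3xEC50, against 4.93 and 5.11 at EC50, a step of -1.02 ± 0.14. GCNT2, which branches cell-surface glycans, had 3.44 and 3.42 at 3xEC50, against 4.21 and 4.45 at EC50, at least 1.26-fold lower, and C10orf143 had a step of -0.86 with both doses under the floor. The limma adjusted p of each of these genes was 0.757.

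**Figure D4:**
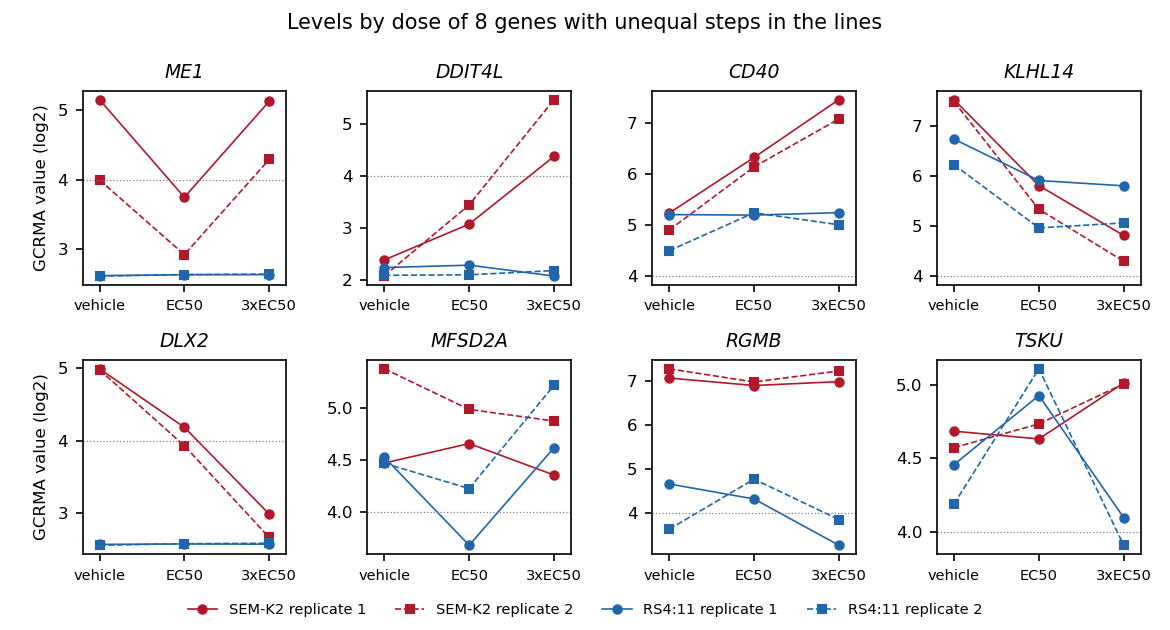
Levels (log2) of 8 genes with unequal steps in SEM-K2 and RS4:11, at vehicle, EC50 and 3xEC50; lines join the arrays of 1 cell line and replicate number (SEM-K2 red, RS4:11 blue), and the dotted line marks the floor of 4. ME1 in SEM-K2 and MFSD2A in RS4:11 have their low point at EC50, whereas CD40 lies higher and KLHL14 and DLX2 lie lower with each dose in SEM-K2.

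No difference in the step between the lines passed the threshold. For SEM-K2 minus RS4:11, 0 genes (0%) were called higher and 0 (0%) lower by limma, with a smallest adjusted p of 0.598, and 778 (7.37%) had an unadjusted p under 0.05. In 495 of these (4.69%) the difference was above 0 and in 283 (2.68%) it was below 0, whichever line had the larger step in size. The 95% interval of the difference lay inside -1 to 1 for 8257 genes (78.2%), a weaker bound than for the step itself. The 5 positive differences with the smallest p were those of GCNT2 (1.42 ± 0.18), TUNAR (1.39 ± 0.20), ME1 (1.37 ± 0.16), TSKU (1.35 ± 0.20) and RGMB (1.16 ± 0.17). TUNAR, a transcript named for a role in pluripotent cells, had 6.22 and 6.22 in SEM-K2 at 3xEC50, against 5.56 and 5.42 at EC50. In RS4:11 TUNAR had 4.82 and 4.44 at 3xEC50, against 5.29 and 5.30 at EC50, so the lines lay in opposite directions. The 5 negative ones with the smallest p were those of NMNAT1 (-1.81 ± 0.20), DLX2 (-1.24), MFSD2A (-1.17), CD300A (-1.05) and CCDC61 (-0.95). ME1, DLX2 and CD300A were under the floor in RS4:11 at both doses, and DLX2 also in SEM-K2 at 3xEC50. NMNAT1 had 5.69 and 4.85 in SEM-K2 at 3xEC50, against 6.27 and 5.68 at EC50. The other probe set above the floor had a difference of -0.02 for NMNAT1, -0.17 for CD300A and 0.78 for RGMB. Without SEM-K2 3xEC50 replicate 2 these 10 differences kept their signs, but they had been picked by p with that array included.

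NF-kappaB is a family of transcription factors held in the cytoplasm by inhibitors such as NFKBIA. Its targets include its own brakes, among them NFKBIA, NFKBIE, TNFAIP3 and TNIP1, its subunits and activation markers of B cells. To show the element by which this list is known, the 250 bases before the RefSeq start of 3 of its members are printed, each in the gene's direction and with its build GRCh38.p14. TNFAIP3 lies at chr6:137867009-137867258 (plus strand), NFKBIA at chr14:35404750-35404999 (minus strand) and NFKB1 at chr4:102501109-102501358 (plus strand). Capitals mark the NF-kappaB letters on either strand, which are GGG, then 2 bases of any kind, then TTTCC.
TNFAIP3: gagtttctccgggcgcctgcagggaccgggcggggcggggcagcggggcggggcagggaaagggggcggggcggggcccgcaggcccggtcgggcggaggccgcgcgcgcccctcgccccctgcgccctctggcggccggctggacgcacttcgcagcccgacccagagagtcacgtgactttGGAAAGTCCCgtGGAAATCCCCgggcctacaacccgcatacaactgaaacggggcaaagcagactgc
NFKBIA: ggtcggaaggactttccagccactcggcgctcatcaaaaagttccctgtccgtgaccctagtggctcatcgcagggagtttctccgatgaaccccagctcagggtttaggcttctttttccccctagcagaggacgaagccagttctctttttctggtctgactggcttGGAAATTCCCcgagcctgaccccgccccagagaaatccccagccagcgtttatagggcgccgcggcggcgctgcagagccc
NFKB1: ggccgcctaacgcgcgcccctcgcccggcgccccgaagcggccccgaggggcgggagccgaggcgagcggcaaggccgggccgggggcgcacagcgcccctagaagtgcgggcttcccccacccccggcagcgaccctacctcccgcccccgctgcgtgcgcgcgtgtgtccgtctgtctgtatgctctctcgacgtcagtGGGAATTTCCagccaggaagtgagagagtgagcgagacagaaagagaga
TNFAIP3 has matches 67 and 55 bases before the start, NFKBIA 1 match 81 bases before it and NFKB1 1 match 49 bases before it. In windows of 250 bases before and 50 after the start, 5 of the 9 list members with a RefSeq promoter hold these letters, against 196 of 8729 promoters of tested genes (2.25%). The list was drawn up from known targets of this factor, so the matches are a description of its members and bear on no difference between doses.

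Of 24 genes on the NF-kappaB list, 13 passed the filter on low values and were tested. None was called in any contrast. In SEM-K2 their median step was 0.31 with 9 above 0, and 7 had an unadjusted p under 0.05, beside 6.91% of all genes. In RS4:11 the median was -0.06 with 6 above 0, and 0 had an unadjusted p under 0.05, beside 2.52% of all genes. The difference between the lines had a median of 0.35, and 6 members had an unadjusted p under 0.05, beside 7.37% of all genes. Both pairs were higher for 9 members in SEM-K2 (28.7% of all genes) and 4 in RS4:11 (24.6%). Both were lower for 1 member in SEM-K2 and 6 in RS4:11. Of all genes, 57.2% in SEM-K2 and 50.2% in RS4:11 had the same sign in both pairs. Over both lines 10 of 13 were above 0 with a median of 0.17. Without SEM-K2 3xEC50 replicate 2, 8 were above 0 and the median was 0.06. The pair medians were 0.22 in SEM-K2 replicate 1 and 0.40 in replicate 2, so the pair without that array also lay above 0.

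TNFAIP3 (A20), a ubiquitin-editing brake on the pathway, had 8.49 and 8.54 in SEM-K2 at 3xEC50, against 8.06 and 7.65 at EC50. Vehicle levels were 6.49 and 4.88. RS4:11 had 6.85 and 6.72 at 3xEC50, against 6.64 and 6.87 at EC50. The doses did not overlap in SEM-K2 and did in RS4:11, with steps of 0.66 ± 0.17 and 0.03 ± 0.17. NFKBIA, the main inhibitor, had 9.99 and 10.05 in SEM-K2 at 3xEC50, against 9.56 and 9.23 at EC50. Vehicle levels were 8.95 and 8.24. In RS4:11 NFKBIA had 10.41 and 10.02 at 3xEC50, against 10.50 and 10.31 at EC50. The SEM-K2 step was 0.63 ± 0.15 and the RS4:11 step -0.19 ± 0.15. NFKBIE, a further inhibitor, had a SEM-K2 step of 0.34 ± 0.13 and TNIP1, a partner of TNFAIP3, of 0.31 ± 0.12.

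Among the subunits, NFKB1 had 8.81 and 9.77 in SEM-K2 at 3xEC50, against 8.65 and 8.88 at EC50. RS4:11 had NFKB1 at 8.70 and 8.97 at 3xEC50, against 8.85 and 9.41 at EC50. The larger SEM-K2 step, 0.89, came from the pair with the array of high 3' to 5' difference, and the other SEM-K2 pair had 0.15. REL had 0.09 ± 0.12 in SEM-K2, NFKB2 -0.11 ± 0.32 and RELB -0.01 ± 0.46, and the SEM-K2 pairs of NFKB2 and RELB disagreed in sign. CD83, an activation marker, had 7.12 and 7.55 in SEM-K2 at 3xEC50, against 6.89 and 7.0 at EC50. IER3, an early response gene, ran the other way in SEM-K2, with 4.88 and 4.75 at 3xEC50, against 5.39 and 5.37 at EC50, a step of -0.57 ± 0.13. In every one of these SEM-K2 results the limma adjusted p was at or above 0.544.

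**Figure D5:**
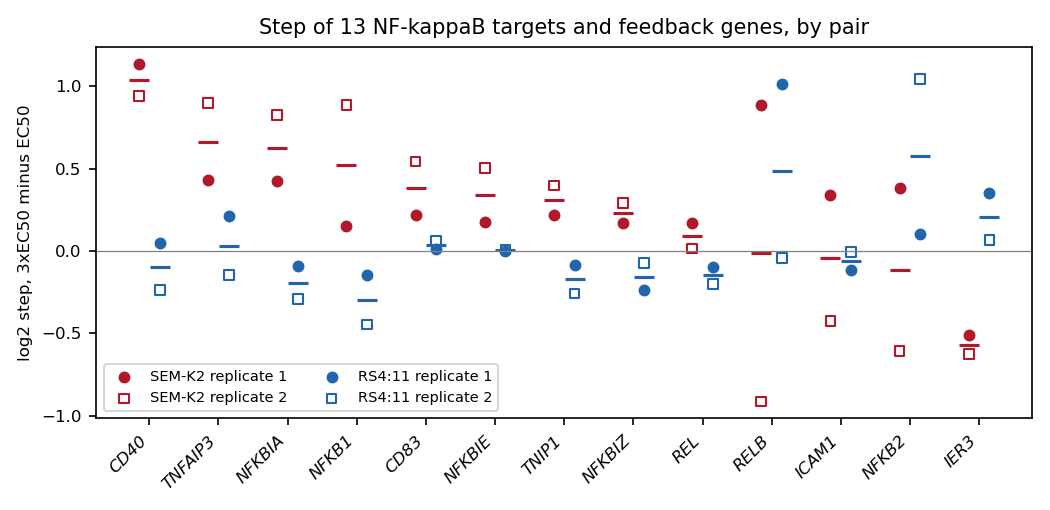
Log2 step (3xEC50 minus EC50) of the 13 tested NF-kappaB targets and feedback genes in each pair; circles are replicate 1, squares replicate 2 and bars the mean of the line, SEM-K2 red on the left and RS4:11 blue on the right of each gene. Both SEM-K2 pairs of 9 genes lie above 0, from CD40 to REL, and both of IER3 lie below 0.

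A few genes outside the NF-kappaB list shared the higher SEM-K2 step. PPP1R15A (GADD34), which reverses eIF2 alpha phosphorylation, had 7.95 and 8.01 in SEM-K2 at 3xEC50, against 7.39 and 7.52 at EC50. Vehicle levels were 6.87 and 6.08. Its SEM-K2 step was 0.53 ± 0.13, against 0.07 ± 0.13 in RS4:11. ATF3, a stress-induced transcription factor, had 0.64 ± 0.18 in SEM-K2 and -0.16 ± 0.18 in RS4:11. PTPRE, a receptor tyrosine phosphatase, had 9.18 and 9.12 in SEM-K2 at 3xEC50, against 8.60 and 8.31 at EC50, and 8.68 and 8.60 in RS4:11 at 3xEC50, against 8.84 and 9.08 at EC50. The difference between the lines was 1.01 ± 0.20 for PTPRE, which did not pass the test. These genes were picked after their values were seen.

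Only 2 genes had a mean step of at least 1 in size over both lines, and both rested on 1 pair. AP1S1, a subunit of a clathrin adaptor, had a step of -1.11 ± 0.57, with -0.38 and -3.47 in the SEM-K2 pairs and 0.12 and -0.72 in the RS4:11 pairs. HINT3, a nucleotide hydrolase, had -1.13 ± 0.76, with -1.11 and -4.03 in the SEM-K2 pairs and -0.45 and 1.07 in the RS4:11 pairs. The extreme value of each belongs to SEM-K2 replicate 2, as did those of BAX, BCL2L1 and MVD. The part of the high 3' to 5' difference of that array in these values was not tested.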

How the data were processed

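Gene expression was measured on 12 Affymetrix U133 Plus 2 arrays of SEM-K2 and RS4:11. Per the submitters' processing notes, which state neither version nor scale, the authors made the log2 values by GCRMA before they were deposited. The log2 scale was inferred from a range of 0.636 to 16.2, and array medians were 3.13 to 3.16. GCRMA corrects background by probe sequence and normalises by quantiles, so a shift common to all genes would not show. Arrays have no count depth, and their number limits the precision.

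Of 54675 probe sets, 41097 had 1 gene symbol in the platform annotation, 1801 several and 11777 none; the first kind was used, without 62 control probe sets. Entrez identifiers of 41037 matched the RefSeq table of GRCh38.p14 and 54 did not. Each gene was represented by its brightest probe set on average, as 10523 of 19775 genes had several. Genes above 4 on at least 2 arrays were tested, 10561 in all, of which 675 rested on _x_at and 3288 on _s_at probe sets, whose probes can match other transcripts.

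Steps were fitted with limma 3.58.1 (lmFit, eBayes) in R 4.3.3, with the data.table package (version 1.17.8), on the 8 obatoclax arrays, with 4 blocks of line and replicate number and 1 dose term (3 residual and 3.06 prior degrees of freedom). A second fit on these arrays held a dose term per line (2 and 3.38), with a spread shared by both lines. P-values were adjusted by Benjamini-Hochberg over all genes, with a threshold of 0.05. The scripts were tested on simulated data. The numbers were taken to pair the arrays, since the deviations of same-numbered arrays from their group means correlated at 0.35 to 0.60 within a line (6 pairs of groups) and at 0.19 to 0.40 between lines (9 pairs).

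Named were up to 10 genes per direction that passed, filled by the smallest p among genes alike in all 4 pairs with a step of at least 0.5; up to 6 per direction within a line, likewise; 5 per direction of the line difference; the smallest p of each list; and the antiapoptotic BCL2 genes. The comparison, the 33 lists and the motifs were chosen with earlier results of these data known. In all, 17 alternatives were run. Scanner files were not used here. Python 3.11.15 with pandas 2.3.3 and matplotlib 3.10.9 made the summaries and figures.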

Additional observations from a re-analysis of the deposited data

Results flagged for a closer look

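SEM-K2 3xEC50 replicate 2 stood above the vehicle arrays in control probe sets that no comparison used. The log2 difference between its 3' and 5' ACTB probe sets was 1.97, against 0.905 to 1.04 on the 4 vehicle arrays. For GAPDH it was 0.61, against 0.0903 to 0.144 on the vehicle arrays.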

How the results depend on the processing

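The number of genes called was 0 in all 4 contrasts under all 17 alternatives. Fitted without the replicate number, the paired design lost its block: 0 genes were called, and 71 (both lines), 258 (SEM-K2), 99 (RS4:11) and 235 (line difference) had an unadjusted p under 0.05. Without a filter on low values these were 522, 1243, 762 and 1240. Leaving out 1 array at a time, which drops its pair, gave 0 calls throughout and 120 to 421, 382 to 1751, 195 to 470 and 250 to 1830. The smallest adjusted p by limma over the alternatives was 0.869 for both lines, 0.0588 for SEM-K2 (ME1, all 12 arrays with replicate block), 0.36 for RS4:11 and 0.232 for the line difference.

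For the named genes, 1481 of 1504 alternative values kept their direction and 0 passed the threshold. The other 23 belong to 10 genes with small steps over both lines, and the cause was not tested. Genes named for the same sign in all 4 pairs, or in both pairs of a line, could not turn when an array was left out. The 8 fits without 1 array also repeat each other, since leaving out either array of a pair gives the same step. The share that kept its direction is therefore no measure of stability. With the mean of probe sets, MCL1 had -0.0885, BCL2L2 -0.0945, PTPRE -0.00131, FLCN -0.0202 and SLC7A11 -0.0438. Without _x_at probe sets, CDT1 had 0.0505 and COL1A1 -0.28. With 1 array left out at a time, the step ran from -0.0700 to 0.184 for MCL1, -0.609 to 0.288 for BCL2L1, -0.0876 to 0.180 for BCL2L2, -0.0778 to 0.00232 for CSF1R, -0.104 to 0.157 for NKG7, -0.0505 to 0.151 for COL1A1, -0.0187 to 0.411 for PTPRE and -0.0311 to 0.193 for FLCN. The change of sign came without an array of SEM-K2 replicate 2 for all of these but COL1A1, for which it came without an array of RS4:11 replicate 1. With 4 pairs, steps under about 0.26 were within the error of a typical gene.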
